A study of Mus musculus with 11 samples.

Results

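The 48 genes described here run the cell cycle and DNA replication: the G1 cyclins and their kinases, the CDK inhibitors, the E2F and RB proteins, the replication factors, and the cyclins, kinases and checkpoint proteins of mitosis. Their chromatin was examined in ATAC-seq libraries, in which a transposase cuts open chromatin and the cut sites are sequenced. The cells were epithelial cells captured with EpCAM microbeads from dissociated lungs of mouse fetuses at E17.5, a late fetal stage. There were 6 control libraries and 5 libraries labelled Prdm3/16KO, called knockouts below. In the knockouts, floxed alleles of Prdm16 and of Prdm3 were deleted by the ShhCre allele, which is active where Shh is expressed and so in the lung epithelium. Cre came from fathers that were Prdm3 fl/fl and Prdm16 fl/wt, and the mothers were Prdm3 fl/fl and Prdm16 fl/fl. The controls are labelled only as control, and which of the possible genotypes they carried is not given in the sources used here. Nothing in the labels says that the replicates came from separate animals, so the p-values measure the spread between these libraries, which may be technical. The labels do not name the deleted exons, so the peak lists hold no check of the deletion itself.

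A region was a 400 bp window around a peak summit with a peak in at least 3 of the 11 libraries. It was counted for a gene if that gene had the nearest protein-coding gene body, at most 100 kb from the summit. By this rule 206 of the 83263 regions tested belonged to 47 of the 48 genes, from 1 region at genes such as Pcna and Plk1 to 19 at Cdk6. Foxm1, a transcription factor that drives mitotic genes, had none. A summit 160 bp from its end lay nearer to Rhno1, its neighbour, and that region scored 0.754 ± 0.0443 in controls and 0.735 ± 0.051 in knockouts (SD over 6 and 5 libraries). Assignment is by distance alone, and whether a region acts on the gene it is counted for was not tested.

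Cells enter the cycle when cyclin D with CDK4 or CDK6, and then cyclin E with CDK2, phosphorylate the RB family. RB proteins then release E2F factors, which switch on genes for DNA synthesis, while CDK inhibitors such as p27 and p15 hold the kinases back. Genes of mitosis are switched on later, through CHR and CCAAT elements bound by the MuvB complex with B-Myb and Foxm1 and by NF-Y. In the fetal lung, distal epithelial progenitors slow their division as they differentiate into alveolar type 1 and type 2 cells.

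The lists held 79525 to 112297 peaks in controls and 72935 to 85704 in knockouts, and 213 to 286 and 190 to 217 of these lay at the 48 genes. That is 0.264% ± 0.00638 of the peaks of a control and 0.253% ± 0.00451 of those of a knockout (SD over 6 and 5 libraries). Read depth is unknown. Each list was cut to 72935 peaks by its −log10 p, and each peak was given a rank score from 1 for the strongest peak to nearly 0 for the last. A region without a peak in the cut list scored 0. Where no peak is stated below, none stood among the 72935 kept, and a weaker one may stand in the uncut list. The last peak kept had a −log10 p of 6.59 to 35.6 in controls and 2.00 to 14.0 in knockouts, so the lists were not all cut at the same level. Regions within 1 kb of the ends of all 7 epithelial marker genes had peaks, Epcam among them, with summed scores of 3.64 to 4.16 in controls and 3.37 to 3.84 in knockouts. Of 4 endothelial markers, Kdr and Tek had such a region and Pecam1 and Cdh5 had none, and the sum was 0.655 to 1.22 in controls and 0.275 to 0.588 in knockouts. The region at Tek was lower, from 0.519 in controls to 0 in every knockout, and that at Kdr was not called (0.452 and 0.467). The mesenchymal markers had regions at 2 of 5 genes (0.862 to 1.16 in controls and 0.846 to 1.21 in knockouts, with none at Pdgfra, Tbx4 or Tcf21). Leukocyte markers had them at 2 of 4 genes (0.699 to 1.11 and 0.699 to 0.784, with none at Ptprc or Cd3e; Spi1 was not called and Cd68 was lower, from 0.242 to 0), and erythroid markers at 2 of 3 (0.401 to 1.30 and 0.435 to 1.04, with none at Gata1). The part of these other cells in the results below was not tested. In bulk libraries such as these, fewer cells with an open region and a less open region in each cell cannot be told apart.

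The promoters of these genes held sequence elements in shares that differed between the role groups; no relation of an element to a score was tested. Promoter sequences from RefSeq (GRCm38.p6, which is mm10), from 250 bases before to 50 after each start, matched 38 of the 48 genes with 45 promoters, of which 42 overlapped a tested region. Matches were counted on both strands for an E2F element, TTTNNCGC, for a CHR element, TTTGAA or TTCGAA, and for the CCAAT box, CCAAT; matches of the same or of different elements could overlap. An E2F match stood in 16 of the 45 promoters (35.6%), against 6.24% of all 21263 protein-coding promoters. A CHR match stood in 35.6% against 17.6%, and a CCAAT box in 62.2% against 38.2%. The 11 promoters of replication genes held an E2F match in 7 and a CHR match in 2. The 8 promoters of mitotic kinases, checkpoint genes and proliferation markers held a CHR match in 7, a CCAAT box in 7 and an E2F match in 0. These are matches of letters, and no binding was measured.

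**Figure D1:**
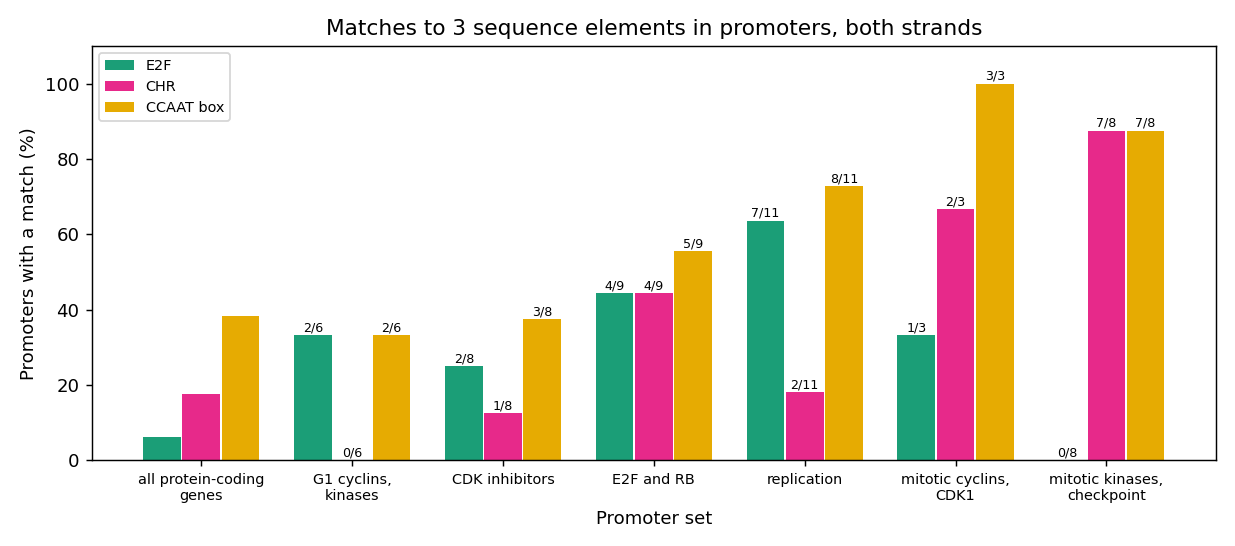
Share of promoters (y axis, percent) with at least 1 match to the E2F, CHR or CCAAT element, for all protein-coding genes and for the 6 role groups (x axis); numbers above bars are promoters with a match over promoters read. E2F matches are most frequent in the replication group (7 of 11), and CHR matches in the group of mitotic kinases (7 of 8).

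The 180 bases before the start are shown for 2 genes of mitosis and 2 of replication, chosen for their many matches, as examples. Capitals mark matches on either strand, so that ATTGG is a CCAAT box read from the other strand, TTCAAA a CHR and a run starting with GCG an E2F match. All are written 5′ to 3′ on the strand of the gene. Top2a, the topoisomerase that untangles sister chromosomes, lies at chr11:99024190-99024369 (minus strand) and Cdk1, the kinase of mitotic entry, at chr10:69352913-69353092 (minus strand). Mcm5 and Mcm6, subunits of the replicative helicase, lie at chr8:75109329-75109508 (plus strand) and chr1:128359706-128359885 (minus strand). In this stretch Top2a has 4 CHR matches and 4 CCAAT boxes and no E2F match, Cdk1 has 2 of each element, Mcm5 has 2 overlapping E2F matches and 2 CCAAT boxes, and Mcm6 has 3 E2F matches, of which 2 overlap, and 2 CCAAT boxes.
Top2a: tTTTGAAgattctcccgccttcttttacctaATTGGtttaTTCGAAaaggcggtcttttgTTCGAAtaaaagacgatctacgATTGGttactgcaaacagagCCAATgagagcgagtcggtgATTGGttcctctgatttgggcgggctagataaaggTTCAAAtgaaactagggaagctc
Cdk1: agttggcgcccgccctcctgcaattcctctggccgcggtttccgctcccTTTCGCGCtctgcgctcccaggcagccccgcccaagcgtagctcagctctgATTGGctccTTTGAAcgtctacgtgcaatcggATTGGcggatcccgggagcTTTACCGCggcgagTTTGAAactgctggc
Mcm5: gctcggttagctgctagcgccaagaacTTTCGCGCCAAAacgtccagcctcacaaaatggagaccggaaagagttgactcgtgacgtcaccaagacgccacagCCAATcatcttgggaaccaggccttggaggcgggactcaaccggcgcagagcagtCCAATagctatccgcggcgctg
Mcm6: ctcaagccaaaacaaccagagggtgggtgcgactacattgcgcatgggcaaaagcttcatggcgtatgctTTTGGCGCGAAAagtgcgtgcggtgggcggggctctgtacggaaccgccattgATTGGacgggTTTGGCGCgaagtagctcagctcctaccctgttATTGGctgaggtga

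All 4 of these promoters overlapped a region with a peak in all 11 libraries, and none of the 4 regions passed the test. The region at the start of Mcm5 (chr8:75109294-75109693) scored 0.972 in controls and 0.980 in knockouts, that of Mcm6 (chr1:128359513-128359912) 0.939 and 0.956, that of Cdk1 (chr10:69352776-69353175) 0.848 and 0.854, and that of Top2a (chr11:99024234-99024633) 0.786 and 0.799.

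Gene ends, meaning positions at most 1 kb from where a protein-coding gene body starts or stops, were open in all libraries at most of the cycle genes, with scores that differed widely between genes. The gene table names no strand or exons, so exons, introns and UTRs are not told apart, and promoter and 3′ end only where a promoter sequence was matched. Of the 45 genes with a region at their own ends, 42 had their strongest such region in all 11 libraries. The median score of these regions was 0.822 in controls and 0.841 in knockouts, and the median size of the difference was 0.0171. The mean over these regions in a library was 0.775 ± 0.0166 in controls and 0.788 ± 0.00818 in knockouts (SD over 6 and 5 libraries).

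Some of the strongest peaks of the whole lists lay at these genes. The peak at Ccna2, the cyclin of S phase and early mitosis, held places 30 to 65 of the 72935 in the 11 lists. The peak of E2f3, an activating E2F, held places 70 to 223, that of Mcm3, another helicase subunit, places 79 to 274, and that of E2f8, a repressive E2F, places 330 to 796. Mcm4, E2f7, Mybl2 (B-Myb), Mcm5 and E2f1 followed, with mean scores from 0.965 to 0.986 in controls. At the other end stood the D cyclins and Cdk6. The ends of Ccnd3 scored 0.00782 in controls and 0.0243 in knockouts, those of Ccnd1 0.203 and 0.0986, and those of Cdk6 0.251 and 0.276. Ccnd2 and the inhibitor Cdkn1a (p21) had no region at their ends. A region inside Ccnd2, 1167 bp from its high-coordinate end, had a peak in all 11 libraries. It scored 0.444 ± 0.0848 in controls and 0.373 ± 0.105 in knockouts (SD over 6 and 5 libraries) and was not called. At Ccnd3, Cdkn1a and Cdk6 a tested region lay at a start annotated inside the gene body. Ccnd3 scored 0.819 ± 0.0673 and 0.821 ± 0.0134 at a summit 3 bp before such a start, and Cdkn1a 0.748 ± 0.0308 and 0.786 ± 0.0282 at a summit 60 bp before one (SD over 6 and 5 libraries). The Cdk6 region, with its summit at chr5:3343885 beside the start at chr5:3343893, was not called.

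Among these 45 regions, 1 was lower and 4 were higher in the knockouts at an adjusted p under 0.05. The tests throughout are limma's moderated comparison of rank scores with Benjamini-Hochberg adjustment over all 83263 regions. Tyms, which makes thymidylate for DNA synthesis, scored from 0.686 through a median of 0.747 to 0.844 in controls, and 0.683, 0.702, 0.641, 0.513 and 0.519 in knockouts 1 to 5. The 2 groups overlapped slightly, and the mean fell by 0.149 (SE 0.042, adjusted p = 0.0125); with peaks ranked by fold enrichment the call was lost (difference −0.0674). The score rose by 0.146 (SE 0.0517, adjusted p = 0.0399) at Cdk4, from 0.531 to 0.677, and by 0.110 (SE 0.0405, adjusted p = 0.0476) at Mcm2, from 0.609 to 0.719. It rose by 0.128 (SE 0.0452, adjusted p = 0.0394) beside the 3′ end of Rbl1, the RB relative p107, whose promoter regions were not called, and by 0.0344 (SE 0.0126, adjusted p = 0.0453) at Rb1. The controls and knockouts overlapped at Cdk4, Mcm2, Rbl1 and Rb1, and each of these 4 calls was lost in 9 to 15 of 21 alternatives. With single libraries left out, Cdk4 lost its call without control 3, 4 or 6 or knockout 1, 2 or 3 (differences 0.118 to 0.135), and Mcm2 without any library but control 2 (0.0912 to 0.118). Rbl1 lost it without control 1, 5 or 6 or knockout 1, 2, 4 or 5 (0.104 to 0.130), and Rb1 without control 1, 3, 4 or 5 or knockout 1, 3, 4 or 5 (0.0288 to 0.0368). The other 40 genes, among them Pcna, Cdc6, Cdt1, Mcm7, Ccnb1, Ccnb2, Aurka, Aurkb, Plk1, Bub1, Cdc20, Cdk2, Rbl2, Cdkn1c, Cdkn2a and Cdkn2c, had no call at this region. At Cdkn2a it lay at the start at chr4:89294619, and the promoter of the start at chr4:89282192 overlapped no tested region. At Cdk2 and Pcna the strongest region was not the one over the promoter. That one was counted for a neighbour, Pmel and Cds2 respectively, and was not called. At E2f1 and E2f8 another region of the same gene overlapped the promoter and was not called. At E2f1 that region scored 0.475 in controls and 0.594 in knockouts. At E2f2 no tested region overlapped the promoter at the low-coordinate end.

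**Figure D2:**
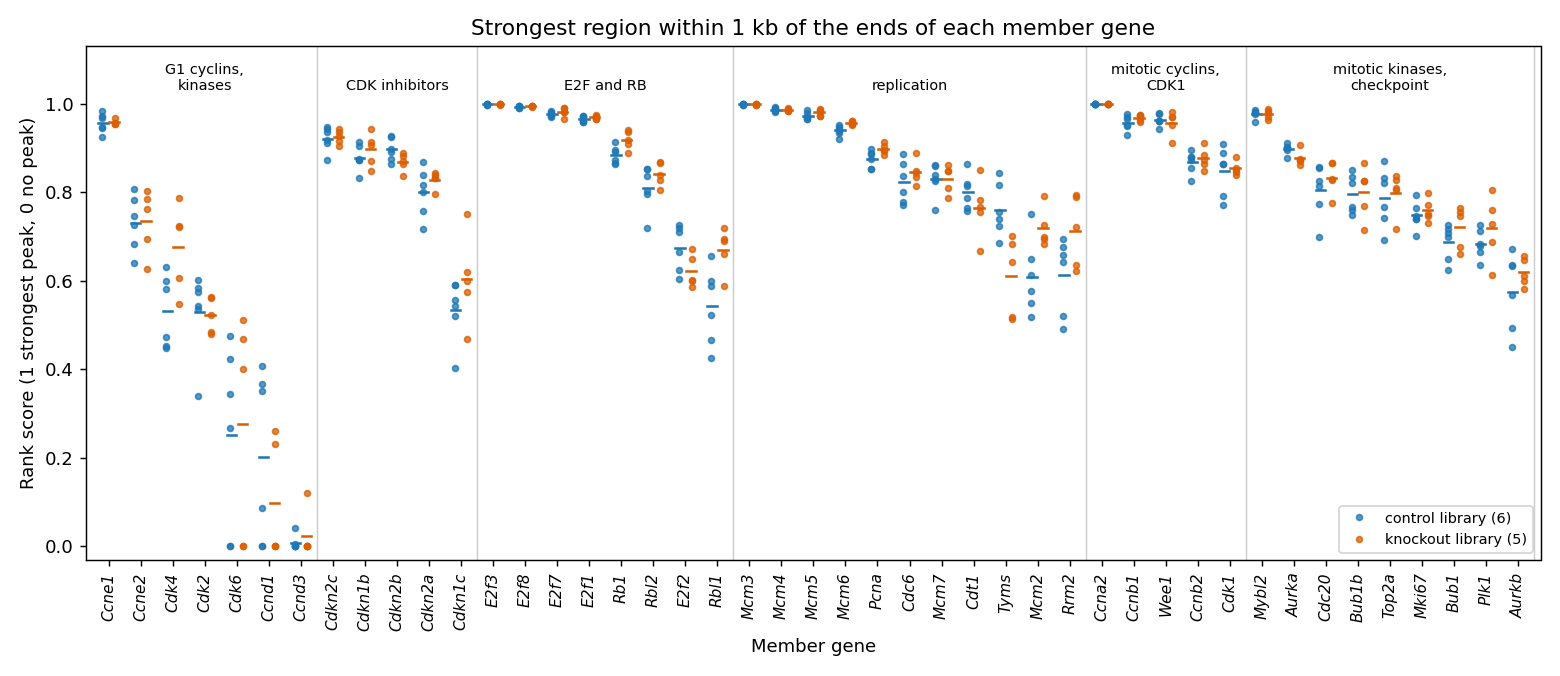
Rank score (y axis, 1 for the strongest peak of a library and 0 for no peak) of the strongest region within 1 kb of the ends of 45 genes (x axis, grouped by role); points are libraries and short lines group means. Scores run from 0.999 at Ccna2 down to near 0 at Ccnd3, and the means of the groups differ by at most 0.149, at Tyms.

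Over all locations, 33 of the 206 regions were lower in the knockouts (16.0%; 20.8% of all regions tested), 24 were higher (11.7%; 17.0% of all) and 149 were not called. The median difference, knockout minus control, was −0.00761, against −0.0208 over all regions. With the lists as deposited, not cut to one length, 51 of 236 were lower and 17 higher; all regions moved the same way, with 67.4% of their calls lower, against 55.1% in the cut lists. With scores centred per library 29 were lower and 31 higher, so the excess of lower calls did not hold there. The cycle genes had more of their regions at gene ends (34.0%, against 23.7% of all) and more regions with a peak in all 11 libraries (57.3%, against 43.8%). By location, 2 of 70 regions at gene ends were lower (2.86%, against 9.64% of all gene-end regions) and 4 were higher (5.71%, against 6.6%). Inside gene bodies 13 of 56 were lower (23.2%, against 24.9%) and 7 were higher (12.5%, against 19.1%). Between genes 18 of 80 were lower (22.5%, against 23.0%) and 13 were higher (16.3%, against 19.5%). The shares at these genes were thus near or under those of all regions in each class.

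**Figure D3:**
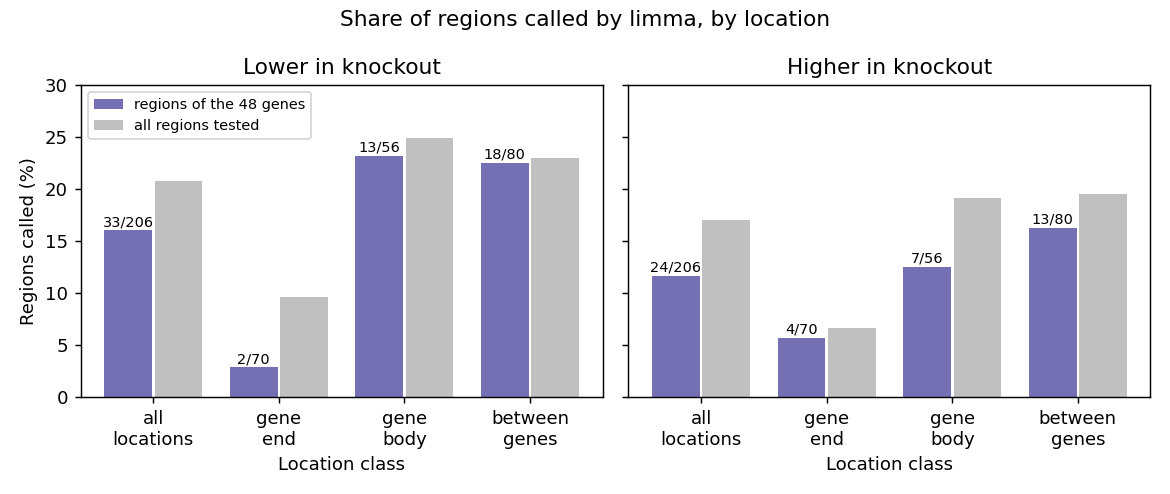
Percent of regions called lower (left) or higher (right) in the knockouts (y axis) by location (x axis), for regions of the 48 genes (purple, with counts) and all regions tested (grey). At gene ends 2 of 70 regions were lower and 4 higher; at the other locations the called share was 12.5% to 23.2%.

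The calls were spread over 26 genes: 10 had lower regions only, 8 higher only and 8 both, and 21 genes with regions had none. A peak in all 6 controls and in no knockout was found at 9 regions (2.94% of all regions tested had this pattern), and a peak in all 5 knockouts and in no control at 4 (3.89% of all). Of the 9, 3 lie in 1 peak interval at Cdkn2b, and with overlapping peaks merged the count was 7. Regions at 0 in a whole group met the 3-library minimum through the other group alone. Scores that are all 0 have no spread, so the adjusted p-values of such regions are no separate support for them. Called differences had a median size of 0.274, against 0.290 over all called regions. The 8 greatest falls and the 8 greatest rises are plotted by library.

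**Figure D4:**
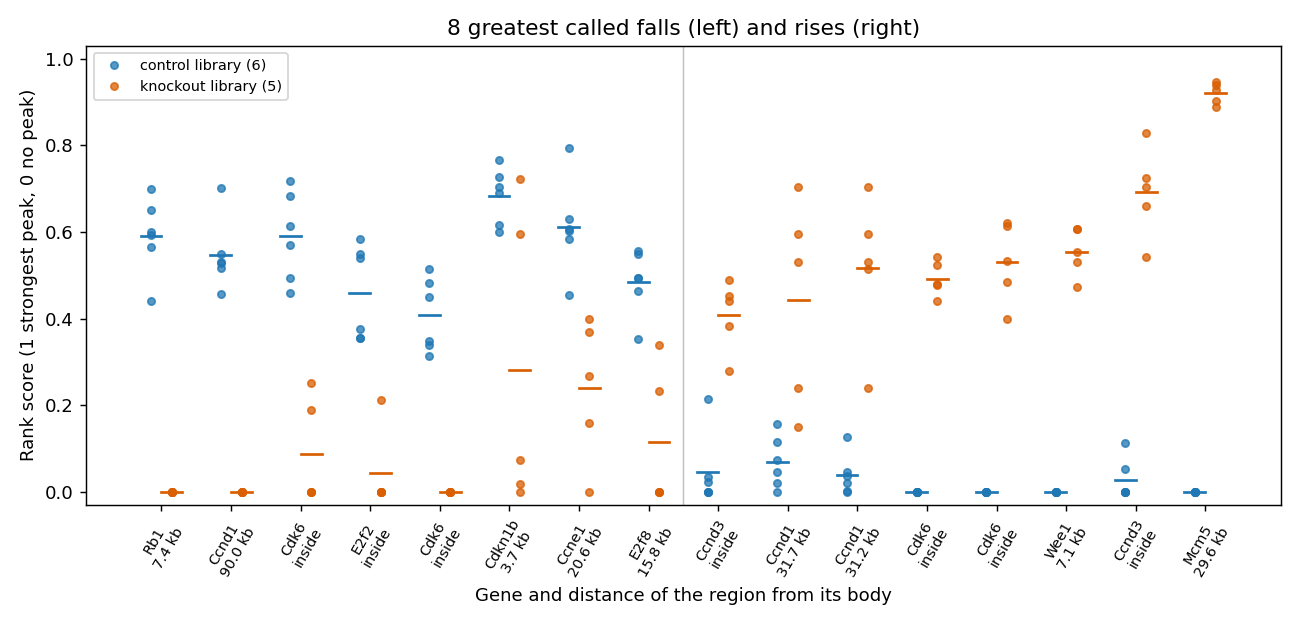
Rank score (y axis) in each library at the 8 called regions with the greatest fall (left) and the 8 with the greatest rise (right) in the knockouts; labels on the x axis give the gene and the distance of the region from its body. At Rb1, Ccnd1 and the second Cdk6 region on the left every knockout is at 0, and at Mcm5, Wee1 and both Cdk6 regions on the right every control is at 0.

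The G1 cyclins and their kinases had the most regions, 56 at 8 genes, and changes in both directions: 10 lower (17.9%), 12 higher (21.4%) and 34 not called (all regions tested: 20.8% lower and 17.0% higher, the values to read beside each group below), with a median difference of 0.00269. A call stood at 7 of the 8 genes, the exception being Cdk2, the partner of cyclin E. Cdk6, the partner of the D cyclins, had 19 regions, of which 3 were lower and 5 higher.

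Inside Cdk6 (chr5:3341004-3531008), a region at chr5:3502688-3503087 had no peak in any control and scored 0.614, 0.532, 0.622, 0.485 and 0.400 in knockouts 1 to 5 (adjusted p = 3.93e-06). A further region at chr5:3509536-3509935 likewise had no peak in a control and scored 0.524, 0.481, 0.440, 0.476 and 0.541 (adjusted p = 1.92e-06). Both lie toward the high-coordinate end of the gene body. Elsewhere inside the same gene body, chr5:3363626-3364025 scored from 0.313 through a median of 0.398 to 0.514 in controls and 0 in all 5 knockouts (adjusted p = 4.53e-05). The region at chr5:3418224-3418623 scored from 0.459 through 0.592 to 0.718 in controls and 0, 0, 0.251, 0.189 and 0 in knockouts (adjusted p = 6.79e-05). Gains and losses thus stood in the same gene body, with no overlap of the groups at any of the 4 regions. With lists cut to 36467 peaks, the rise at chr5:3502688-3503087 was not called (difference 0.107), and the fall at chr5:3418224-3418623 was −0.195 in place of −0.502. The regions at chr5:3509536-3509935 and chr5:3363626-3364025 had no value at that length. Beyond the low-coordinate end, the score at chr5:3289998-3290397, 50807 bp away, rose from 0.808 to 0.944 and that at chr5:3301041-3301440, 39764 bp away, from 0.580 to 0.825. That at chr5:3250251-3250650, 90554 bp away, fell from 0.801 to 0.527. The gene's own ends did not pass the test.

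Ccnd1, cyclin D1, had its calls outside the gene body (chr7:144929931-144939831), beyond the high-coordinate end. The region at chr7:145029612-145030011, 89980 bp away, scored from 0.458 through 0.530 to 0.701 in controls and 0 in all 5 knockouts (adjusted p = 2.67e-06). Close beside it, chr7:145030807-145031206 went the other way, from 0.399 ± 0.140 to 0.717 ± 0.0206 (SD over 6 and 5 libraries; adjusted p = 9.41e-04). Nearer to the gene, chr7:144970863-144971262, 31231 bp away, scored from 0 through 0.0283 to 0.127 in controls and 0.240, 0.703, 0.596, 0.530 and 0.514 in knockouts (adjusted p = 1.67e-04). The window beside it, chr7:144971359-144971758, shares 1 peak interval of 1363 bp with it and rose from 0.0683 to 0.444 (adjusted p = 0.00585), but in the uncut lists its difference was −0.163 (adjusted p = 0.101). With lists cut to 36467 peaks, the fall 89980 bp away (difference −0.109) and the rise 31231 bp away (0.137) were not called.

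Ccnd3, cyclin D3, held its greatest rise inside the gene body (chr17:47505051-47599689) at chr17:47598123-47598522, near the high-coordinate end and 1009 bp from Bysl, the next gene. Controls scored 0.113, 0, 0, 0.0527, 0 and 0, and knockouts 0.543, 0.703, 0.660, 0.829 and 0.726 (adjusted p = 9.78e-07). Every knockout was above every control; the difference of 0.665 was 0.384 with lists cut to 36467 peaks and 0.411 with peaks ranked by fold enrichment. At chr17:47521581-47521980 controls scored from 0 through 0.0116 to 0.213 and knockouts 0.489, 0.382, 0.441, 0.279 and 0.453 (adjusted p = 3.06e-04). The other calls of this gene were small falls at strong peaks, from 0.904 to 0.835 at chr17:47574001-47574400 and from 0.938 to 0.893 at chr17:47527592-47527991.

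The E cyclins had lower calls only. At Ccne1, chr7:38077158-38077557, 20627 bp from the gene, scored from 0.454 through 0.605 to 0.795 in controls and 0.400, 0.159, 0.266, 0 and 0.369 in knockouts (adjusted p = 0.00185). A region inside Ccne2 fell from 0.471 to 0.129 (adjusted p = 0.00531). Ccnd2, cyclin D2, had 1 call, a rise from 0.00622 to 0.284 at a region 55311 bp away (adjusted p = 0.0121).

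**Figure D5:**
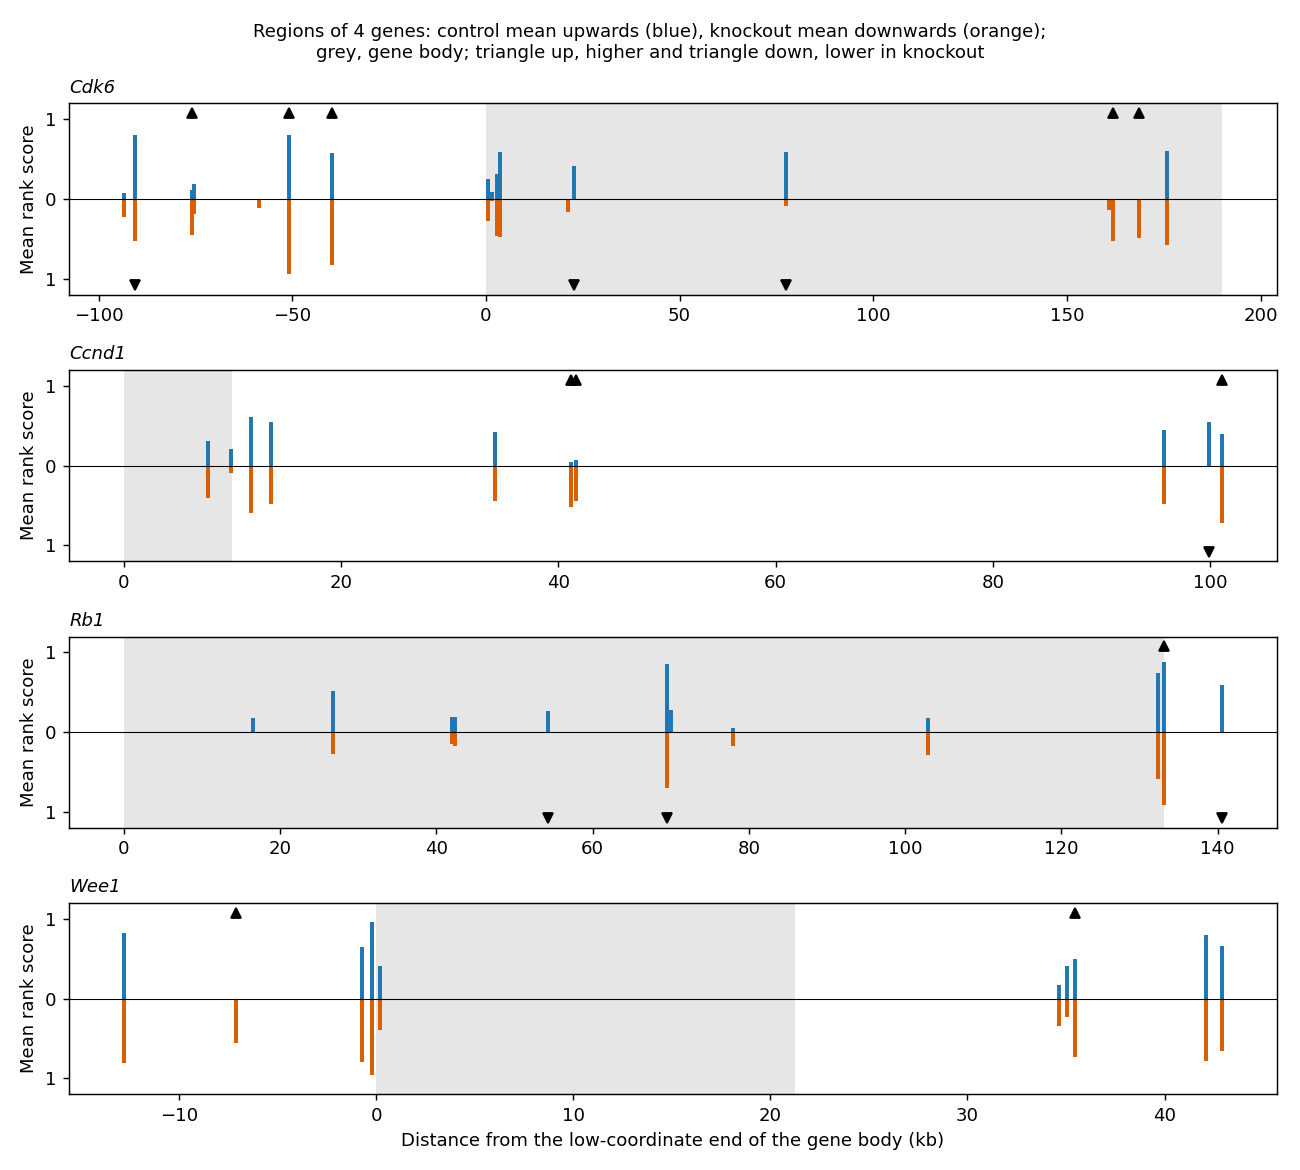
Mean rank score of each region (y axis, controls upward and knockouts downward) by distance in kb from the low-coordinate end of the gene (x axis) at Cdk6, Ccnd1, Rb1 and Wee1; grey marks the gene body, and triangles mark regions called higher (up) or lower (down) in the knockouts. Regions of both directions lie at Cdk6 (3 lower, 5 higher) and Ccnd1 (1 lower, 3 higher), with 3 lower and 1 higher at Rb1 and 2 higher at Wee1.

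The CDK inhibitors had 26 regions at 6 genes, with 5 lower (19.2%) and 1 higher (3.85%), all at Cdkn1b and Cdkn2b, and a median difference of −0.0342. Cdkn2b encodes p15. Its 3 lower regions, 91480 to 92546 bp from the gene, share 1 peak interval of 1510 bp, so they stand for a single site. At the middle window, chr4:89402953-89403352, controls scored from 0.191 through 0.323 to 0.614 and all 5 knockouts 0 (adjusted p = 0.0016). At chr4:89351523-89351922, 40690 bp from Cdkn2b, all controls scored 0 and knockouts 0.541, 0.260, 0.403, 0 and 0.263 (adjusted p = 0.00907). At Cdkn1b, which encodes p27, chr6:134928981-134929380 scored from 0.599 through 0.697 to 0.766 in controls and 0.722, 0.596, 0.0173, 0 and 0.0725 in knockouts. The groups overlapped, since knockouts 1 and 2 were at the level of the controls and the other 3 near 0. The window beside it, chr6:134928581-134928980, lies in the same peak interval of 1366 bp and had a peak in all 5 knockouts. There knockouts 3 to 5 scored 0.711, 0.650 and 0.767, and the means were 0.680 in controls and 0.689 in knockouts, not called. The low scores thus belong to 1 window of a site that was open in every knockout. The fall of 0.402 (SE 0.126, adjusted p = 0.023) was not called without knockout 3, 4 or 5 (differences −0.350 to −0.332), with a −log10 q of at least 5 (−0.264) or in the uncut lists (−0.0347, adjusted p = 0.597), and with overlapping peaks merged the difference was 0.00515 (adjusted p = 0.927). The 14 regions of Cdkn1a, Cdkn1c, Cdkn2a and Cdkn2c held no call.

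The E2F and RB genes had 47 regions at 8 genes, with 10 lower (21.3%) and 4 higher (8.51%) and calls at 7 genes, all but Rbl2 (p130); the median difference was −0.0242. Rb1, the retinoblastoma protein, had the greatest fall of any of the 206 regions. It lies at chr14:73333181-73333580, 7429 bp beyond the high-coordinate end of the gene, where the end itself scored 0.884 in controls and 0.918 in knockouts. The 6 controls scored from 0.439 through 0.596 to 0.700 and all 5 knockouts 0 (difference −0.592, SE 0.0547, adjusted p = 1.60e-06). With lists cut to 36467 peaks the difference was −0.203, still called but smaller than that of the Rrm2 (−0.406), Tyms (−0.298), Ccne1 (−0.240) and Mki67 (−0.217) regions described here. Inside the gene body 2 further regions fell: chr14:73246933-73247332 from 0.261 to 0 (adjusted p = 6.67e-04) and chr14:73262192-73262591 from 0.855 to 0.699 (adjusted p = 4.04e-04). Lpar6 lies inside the body of Rb1, 6774 bp from the first and 22033 bp from the second of these.

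E2f2, an activating E2F, fell at chr4:136195046-136195445, 812 bp inside its high-coordinate end. Controls scored from 0.355 through 0.457 to 0.584, and knockouts 0, 0, 0, 0.212 and 0 (adjusted p = 2.39e-04). Every control was above every knockout; with lists cut to 36467 peaks the call was lost (difference −0.0576). The repressive E2Fs had lower calls only: at E2f8, chr7:48897624-48898023 fell from 0.485 to 0.114 (adjusted p = 0.00133), and at E2f7, chr10:110716966-110717365 fell from 0.320 to 0 (adjusted p = 0.00159). E2f7 had 2 and E2f8 had 1 more lower region. Inside E2f1, chr2:154567851-154568250 fell from 0.245 to 0 (adjusted p = 0.00244). Higher calls at E2F genes stood at starts annotated inside the gene body: E2f3 rose from 0.547 to 0.699 at a summit 6 bp before such a start (adjusted p = 0.00286), and E2f2 from 0.506 to 0.652 at a summit 149 bp before one (adjusted p = 0.0394). The strongest gene-end regions of these 5 E2F genes were not called.

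The 11 replication genes had 28 regions, with 5 lower (17.9%), 3 higher (10.7%) and a median difference of −0.000368, and 57.1% of them lay at gene ends. The greatest change of any of the 206 regions lay at chr8:75157879-75158278, 29639 bp beyond the high-coordinate end of Mcm5. All 6 controls scored 0, and the knockouts scored 0.890, 0.947, 0.928, 0.940 and 0.903 (difference 0.921, SE 0.0412, adjusted p = 9.04e-09). The region entered the test through the knockouts alone, and the scores of the controls have no spread. No other region of these genes went from no peak in any control to scores this high. The next gene, Rasd2, is 55866 bp from it. The start of Mcm5 itself, shown above by its sequence, was open in all libraries.

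Rrm2, a subunit of the ribonucleotide reductase that makes deoxynucleotides, had 8 regions and 3 calls. At chr12:24723835-24724234, 9888 bp from the gene, controls scored from 0.924 through 0.945 to 0.969 and knockouts 0.721, 0.834, 0.746, 0.687 and 0.724 (adjusted p = 5.98e-06). The groups did not overlap. Inside the gene body 1 region fell from 0.330 to 0.0618 (adjusted p = 0.00443) and 1 rose from 0.198 to 0.450 (adjusted p = 0.0496). Near Mcm3, a region 26018 bp away fell from 0.836 to 0.599 (adjusted p = 3.99e-04), and inside Mcm6 a region fell from 0.301 to 0 (adjusted p = 0.0103). Pcna, the sliding clamp, Cdc6 and Cdt1, which load the helicase, and Mcm4 and Mcm7 had no call.

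The mitotic cyclins, Cdk1 and Wee1 had 25 regions, with 2 lower and 2 higher (8% each) and a median difference of −0.0144. Wee1 encodes the kinase that holds CDK1 inactive, and both higher calls were at it. At chr7:110114752-110115151, 7108 bp beyond the low-coordinate end of Wee1, all 6 controls scored 0 and the knockouts 0.530, 0.472, 0.608, 0.607 and 0.555 (difference 0.554, adjusted p = 9.24e-07; 0.120 with lists cut to 36467 peaks). At chr7:110157335-110157734, 14235 bp beyond the other end, controls scored from 0.433 through 0.500 to 0.577 and knockouts 0.745, 0.707, 0.730, 0.750 and 0.761 (adjusted p = 8.06e-05). Neither region had overlapping groups, and with peaks ranked by fold enrichment the second was not called (difference 0.111). Both lower calls were at Cdk1: a region inside the gene body fell from 0.324 to 0.0206 (adjusted p = 5.02e-04) and a region 52714 bp away from 0.336 to 0.0255 (adjusted p = 0.00808). Ccna2, Ccnb1 and Ccnb2 had 4 regions and no call.

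The remaining mitotic genes had 24 regions at 9 of 10 genes, 1 lower (4.17%) and 2 higher (8.33%), with a median difference of 0.0016, and 79.2% of the regions had a peak in every library. Inside Mki67, the source of the Ki-67 proliferation marker, chr7:135710742-135711141 scored from 0.490 through 0.627 to 0.697 in controls and 0.559, 0.464, 0.468, 0.437 and 0.481 in knockouts (adjusted p = 0.0238). At Bub1b, a spindle checkpoint kinase, a region 12003 bp away rose from 0.688 to 0.789 (adjusted p = 0.043). The groups overlapped at both, and the calls were lost in 5 and 11 of 21 alternatives. Mki67 lost its call without control 1 or 2 or knockout 4 (differences −0.126 to −0.121), and Bub1b without control 1, 4 or 6 or knockout 2, 3, 4 or 5 (0.078 to 0.102). The other higher call, 86644 bp from Mki67, was weak in every library (0 in all controls, at most 0.222 in knockouts; adjusted p = 0.0465). Aurka, Aurkb, Plk1, Bub1, Cdc20, Top2a and Mybl2 had no call.

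A wider list of 83 other genes of the same pathways, of which 81 had regions, gave similar shares: 49 of 278 regions were lower (17.6%) and 26 higher (9.35%), with a median difference of −0.011. By list, 19 of 97 regions were lower and 10 higher at the origin and replication fork genes, 4 and 4 of 43 at the partners of E2F and the MuvB subunits, 17 and 7 of 80 at other genes of mitosis, and 9 and 5 of 58 at genes of DNA damage and growth arrest. The region with the smallest p in the origin list lay inside Orc3, a subunit of the origin recognition complex, at chr4:34574896-34575295. It scored 0.639 ± 0.0835 in controls and 0 in all knockouts (SD over 6 libraries; adjusted p = 6.26e-07). In the mitosis list it was a region 39679 bp from Mad2l1, a spindle checkpoint protein, which rose from 0.0633 ± 0.0857 to 0.700 ± 0.0388 (SD over 6 and 5 libraries; adjusted p = 8.81e-07). A region 95923 bp from Cdkn3, a CDK phosphatase, fell from 0.576 ± 0.0607 to 0 (SD over 6 libraries; adjusted p = 8.17e-07), and a region 31877 bp from Rbbp7, a histone-binding protein, rose from 0 to 0.264 ± 0.0908 (SD over 5 libraries; adjusted p = 7.73e-04).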

How the data were processed

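Deposited narrowPeak lists of 11 libraries were used. Build mm10 and the tools MACS2, deepTools and DiffBind 3 stand in the submitters' processing notes, with no role; no aligner or peak-calling option is given in the sources used here. The deposited score of a peak was not used. The authors' fold enrichment, a ratio made within each library, served as an alternative ranking. The deposited −log10 p ranked the peaks, and the deposited −log10 q served as an alternative filter. Units and layout were read from the values.

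Each list was cut to the shortest length, 72935 peaks. Around each summit a window of 400 bp was placed, and the best ranked of windows that overlapped was kept. A library's peak counted for a window it overlapped by at least 100 bp, so a wide peak could score in more than 1 window. Genes came from 21887 protein-coding entries (RefSeq GRCm38.p6). The scores of both genotypes were tested in R 4.3.3 by limma 3.58.1, with its trend and robust options and no further covariate; the fit was first tested on simulated data. Python 3.11.15 with pandas 2.3.3, numpy 2.4.6 and matplotlib 3.10.9 did the rest.

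The 48 genes and the other lists were chosen with earlier results of these data known. Regions named were the 8 greatest called falls and rises and all with a peak in every library of a single group. Also named were the regions with the smallest p of each role group, whatever their direction, and the strongest gene-end region of each gene. Other calls are mentioned to complete a gene's account and were chosen after their values were seen. Alternatives were the lists as deposited, lists cut to 36467 peaks, ranking by fold, merged peaks, an overlap of 200 bp, a peak in at least 6 libraries, a −log10 q of at least 5, scores centred per library, limma without trend and robust, a replicate block, a limit of 10 kb, and leaving out each library.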

Additional observations from a re-analysis of the deposited data

Results flagged for a closer look

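In 130 groups of libraries, at the regions named by rule, 14 held a library far from the others of its group, its gap to the nearest exceeding the 95% critical value of Dixon's test for groups of 5 or 6. Chance alone does this in about 1 in 20 groups of independent, normally distributed values. These are bounded scores, many of them 0, so that rate need not hold here. Control replicate 3 was the library in 6 of the 14. It scored 0.404 at the end of Cdkn1c (others 0.521 to 0.591), 0.340 at Cdk2 (0.537 to 0.601), 0.759 at Mcm7 (0.826 to 0.861) and 0.959 at Mybl2 (0.977 to 0.985), all lower than the rest. It was higher than the other controls at the Ccnd1 regions 31231 bp (0.127) and 89980 bp (0.701) from the gene. The calls at both held without it.

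Among called regions, knockout replicate 4 alone had a peak at the lower E2f2 region (0.212), control replicate 5 scored 0.575 at the E2f7 region 28274 bp from the gene (others 0.204 to 0.325), and control replicate 5 scored 0.213 at the higher Ccnd3 region inside the gene (others 0 to 0.0334). Among gene-end regions without a call, knockout replicate 1 was at 0.795 at Cdkn2a and 0.967 at Ccne1, knockout replicate 2 at 0.717 at Top2a, and the near-empty end of Ccnd3 had 0.0406 in control replicate 1 and 0.122 in knockout replicate 4.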

How the results depend on the processing

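The counts of 33 lower and 24 higher regions became 51 lower of 236 with the lists as deposited, 13 lower and 14 higher of 112 with lists cut to 36467 peaks (which also stretches the scores of strong peaks), 27 and 27 with ranking by fold enrichment, 29 and 31 with scores centred per library, 15 higher with a peak required in at least 6 libraries, and 21 lower and 12 higher within 10 kb of a gene (145 regions). The 9 regions with a peak in all controls and no knockout became 0 with lists cut to 36467 peaks, 4 within 10 kb and 7 with overlapping peaks merged. The 4 of the reverse kind became 3 with the lists as deposited, with lists cut to 36467 peaks and within 10 kb. They became 0 under the 6-library minimum, which 5 knockouts cannot meet. Leaving out each library gave 31 to 40 lower and 17 to 23 higher regions. A replicate block gave 31 lower and 16 higher; same-numbered libraries did not deviate together (correlations −0.0238 to 0.139), so the numbers were not taken to pair them. Of 652 values for the 32 called regions named by rule, 577 kept direction and call, 73 lost the call and 2 reversed, and 17 regions kept both wherever an alternative gave them a value, 5 of them in all 21 alternatives. The reversals were −0.163 at the Ccnd1 window 31727 bp from the gene, with the lists as deposited, and 0.00515 at the Cdkn1b region with merged peaks; the cause was not tested. With lists cut to 36467 peaks, the called regions named by rule at Cdkn1b, Cdkn2b, E2f1, E2f7 and E2f8 had no value. Nor had some of those at Rb1, Ccnd1, Ccnd3 and Cdk6. Called regions outside the rule were not tested singly under the alternatives. Depth is unknown, and a score of 0 may be a peak below the list's end.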
